A study of Mus musculus with 12 samples.

Results

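The genes described here encode the mitochondrial ribosomal proteins, which build the ribosome inside mitochondria. They were measured on expression arrays of mouse myocardium and comprise every named gene whose symbol on the array begins with Mrpl or Mrps followed by a number. That rule took 76 of the 19505 named genes, 48 with large subunit symbols (Mrpl) and 28 with small subunit symbols (Mrps). Each of the 76 was measured by 1 probe set, and all 76 matched a protein-coding RefSeq gene of the same symbol, spread over 17 chromosomes. In the DM_AngIV group, diabetes was induced with streptozotocin, which destroys pancreatic beta cells, and angiotensin IV, a peptide of the renin-angiotensin system, was infused from week 8 until week 24 at a daily dose of 2.88 mg/kg. The DM group received the same streptozotocin course on 5 days without angiotensin IV, and both diabetic groups held animals with a fasting glucose of at least 16.7 mM. The NC group received vehicle on 5 days. Each group had 4 mice, labelled 6 months, and a p-value here reflects variation among individual mice. The sources used here give neither the strain and sex of the mice nor the cardiac chamber sampled.

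The mitochondrial ribosome translates the messenger RNAs of the mitochondrial genome, which encode core subunits of the respiratory chain and the ATP synthase. Its proteins are encoded in the nucleus, made in the cytosol, imported and assembled with ribosomal RNAs that are transcribed inside the organelle. The heart depends on this output for its energy supply, and human variants in several of these genes, among them MRPL3, MRPL44 and MRPS22, cause cardiomyopathy.

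Promoter sequence was examined first, because promoters of nuclear genes for mitochondrial proteins are known for sites of NRF1 and of ETS family factors. RefSeq promoter windows, 250 bases before to 50 bases after the annotated start in the GRCm38.p6 build, were matched by gene ID for 67 of the 76 genes. The windows of the 4 matched members with the smallest unadjusted p in any comparison are printed on their strand, with matches to the ETS family core and the NRF1 motif in capitals and positions counted from the start to the centre of a match. Mrpl33 encodes a large subunit protein and its window lies at chr5:31613701-31614000 on the plus strand, with an ETS match centred on the annotated start. Mrps10 encodes a small subunit protein and its window lies at chr17:47368947-47369246 on the plus strand, with no match to either motif. Mrpl34 encodes a large subunit protein and its window lies at chr8:71464676-71464975 on the plus strand, with an ETS match centred at -34. Mrpl12 encodes a protein of the ribosomal stalk that has also been reported to bind the mitochondrial RNA polymerase, and its window lies at chr11:120484387-120484686 on the plus strand, with NRF1 matches centred at -76 and 46.
Mrpl33: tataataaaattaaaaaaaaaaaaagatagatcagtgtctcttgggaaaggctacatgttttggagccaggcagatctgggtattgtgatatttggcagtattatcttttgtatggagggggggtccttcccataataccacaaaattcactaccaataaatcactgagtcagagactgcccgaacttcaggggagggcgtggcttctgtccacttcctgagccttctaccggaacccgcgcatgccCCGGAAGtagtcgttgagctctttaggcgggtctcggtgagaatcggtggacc
Mrps10: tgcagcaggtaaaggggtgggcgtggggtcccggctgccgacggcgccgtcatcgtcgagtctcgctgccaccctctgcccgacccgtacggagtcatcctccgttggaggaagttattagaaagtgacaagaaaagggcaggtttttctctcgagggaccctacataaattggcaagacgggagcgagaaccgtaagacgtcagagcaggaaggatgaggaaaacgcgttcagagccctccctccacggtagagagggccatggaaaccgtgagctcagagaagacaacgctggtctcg
Mrpl34: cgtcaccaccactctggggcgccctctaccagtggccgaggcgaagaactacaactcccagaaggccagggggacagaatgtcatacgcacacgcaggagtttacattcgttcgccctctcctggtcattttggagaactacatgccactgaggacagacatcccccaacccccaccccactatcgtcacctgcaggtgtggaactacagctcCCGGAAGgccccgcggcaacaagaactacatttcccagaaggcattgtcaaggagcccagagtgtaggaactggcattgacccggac
Mrpl12: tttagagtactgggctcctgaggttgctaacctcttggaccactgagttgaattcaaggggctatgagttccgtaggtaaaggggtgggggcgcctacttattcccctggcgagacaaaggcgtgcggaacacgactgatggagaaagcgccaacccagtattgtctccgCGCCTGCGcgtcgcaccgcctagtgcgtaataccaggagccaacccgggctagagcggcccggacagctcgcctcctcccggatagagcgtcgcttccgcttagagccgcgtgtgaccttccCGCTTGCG

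The ETS family core CCGGAAG, searched on both strands, occurred in 25 of the 67 member promoters (37.3%), against 13.2% of the 15691 promoters of genes measured on the array and 9.93% of all 27025 genes in the table. The NRF1 core CGCANGCG occurred in 20 member promoters (29.9%), against 13.1% of measured genes and 9.22% of all genes. This core was shortened from a longer consensus after the counts of that consensus had been seen, so its share is a description only. The YY1 motif AAGATGGC occurred in 12 member promoters (17.9%), against 3.64% of measured genes and 3.19% of all genes. The ETS or the NRF1 letters were present in 37 member promoters, and 8 held both. The TATA box letters (TATAAA on either strand, anywhere in the window) went the other way, with 7.46% of member promoters against 14.6% of measured genes and 15.7% of all genes. The nuclear receptor core AAGGTCA occurred in 4 member promoters (5.97%), against 4.57% of measured genes and 5.38% of all genes. Of the 29 ETS matches, 26 lay within 100 bases of the start with a median position of -14, and 22 of the 27 NRF1 matches did so with a median of -44. The YY1 matches lay further downstream, with a median position of 19. The 5 TATAAA matches had a median position of -151, and 1 of them lay within 100 bases of the start. Median GC content was 58.3% for the member promoters, 57% for measured genes and 52.7% for all genes. These are letter matches in a fixed window and were not tested against base composition.

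**Figure D1:**
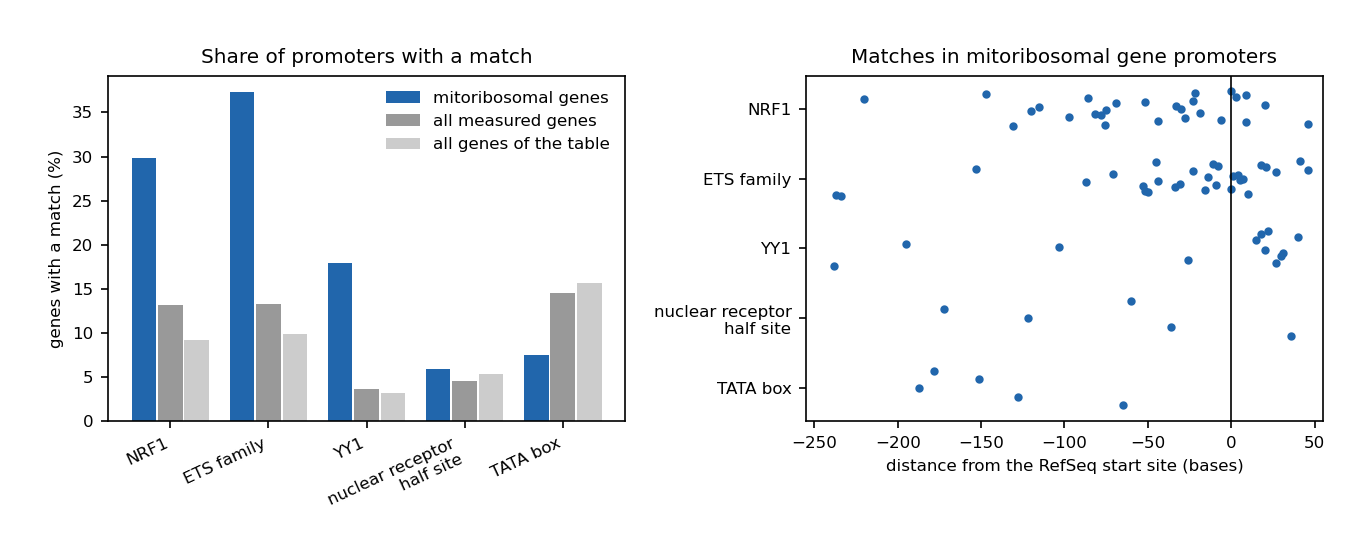
Bars on the left give the share of genes, in percent, whose promoter holds each of the 5 motifs on either strand, for mitochondrial ribosomal protein genes, all measured genes and all genes of the table, and each point on the right is a match in a member promoter by its distance from the start in bases. The ETS family core was found in 37.3% of the 67 member promoters against 13.2% of measured genes, and the TATA box letters in 7.46% against 14.6%.

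The members were well detected in myocardium. On the log2 scale, values of single genes ran between 3.94 and 10.46, and 73 of the 76 exceeded the background level of 4.96 on all 12 arrays, background being the 95th percentile of 246 reporter control probe sets. Mrpl36, a large subunit protein, passed it on some arrays, with values between 4.76 and 5.23. Mrps22, a small subunit protein, passed it on every array except DM mouse 2, where it read 4.68. Mrpl43, a large subunit protein, was not above background on any array, and no fold is given for it. The median SD between mice within a group was 0.143 for the members and 0.192 over all genes, in log2 units. Many of all genes lay below background. The median SE of a difference was 0.114 for members, 0.121 for genes whose mean was above background and 0.134 over all genes.

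**Figure D2:**
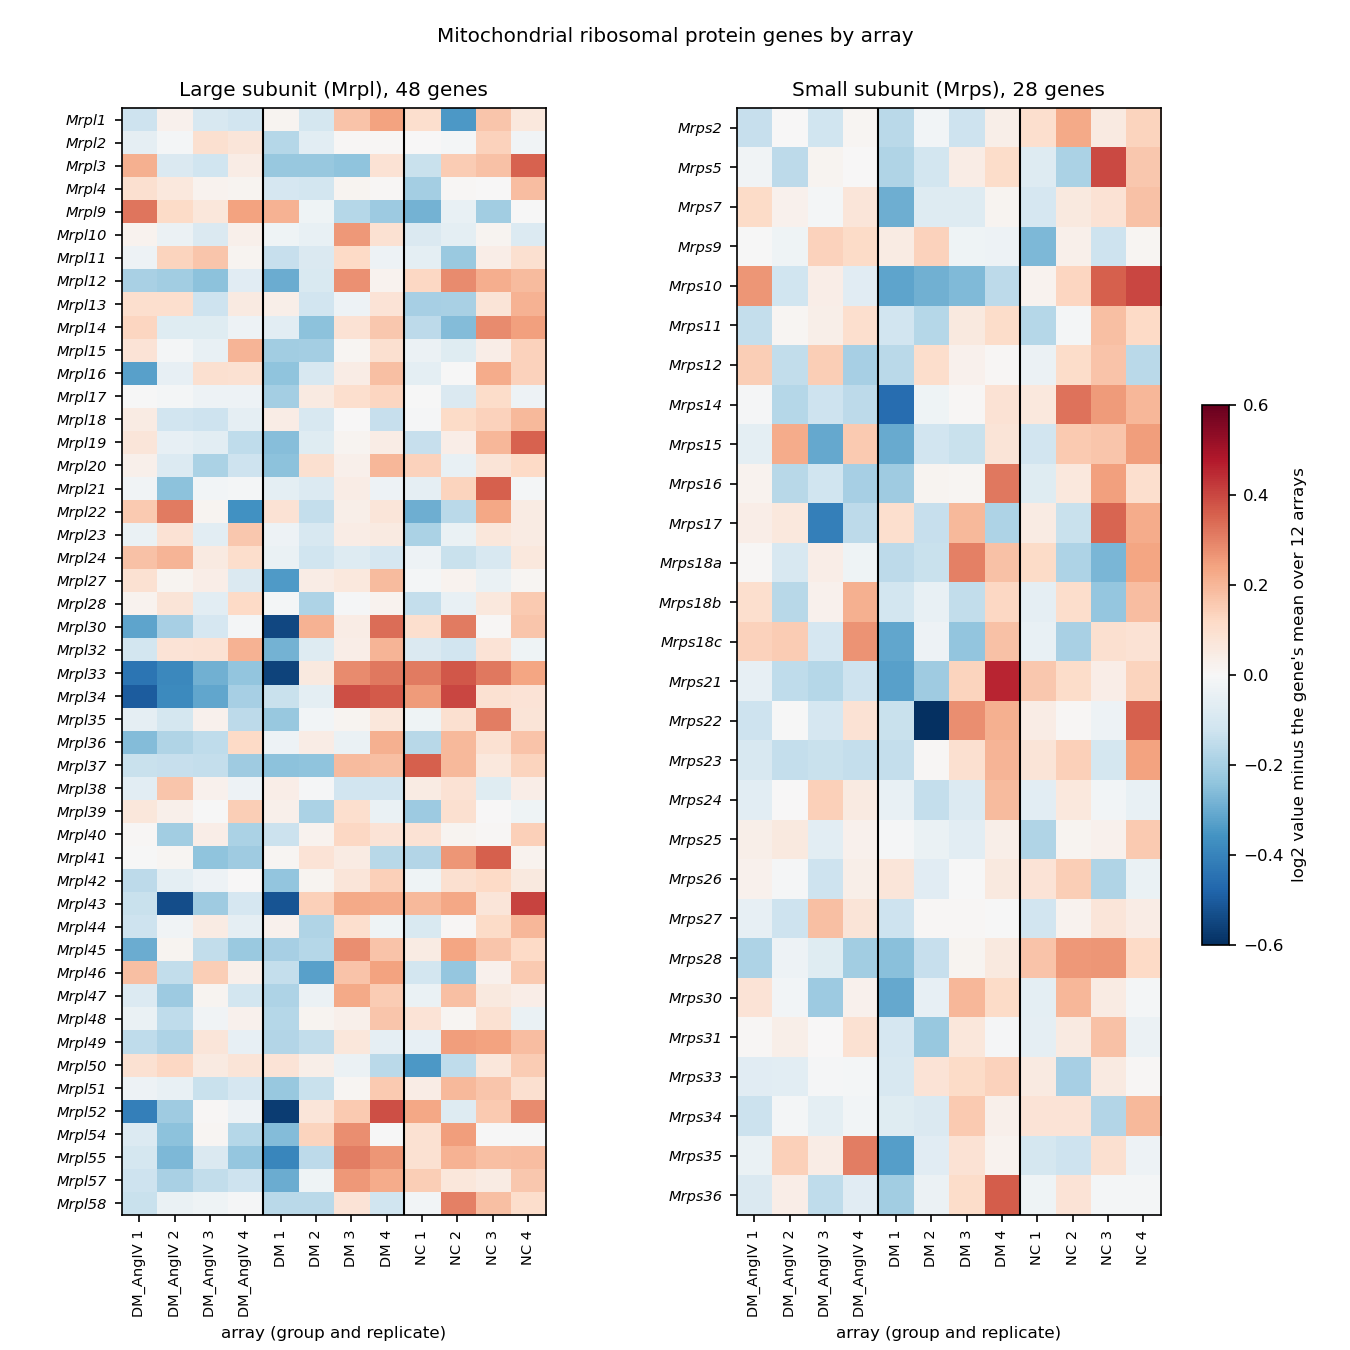
Deviation of each of the 76 mitochondrial ribosomal protein genes from its own mean over 12 arrays (log2 units), with 1 row a gene, the large subunit in the left panel and the small subunit in the right one, and DM_AngIV, DM and NC arrays from left to right in each. DM mice 1 and 2 read low and DM mice 3 and 4 high across most rows, while the 4 DM_AngIV columns resemble each other.

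The members varied together from mouse to mouse, and the DM group was the most divided. For each array, every member was expressed as its deviation from its own mean over 12 arrays, and the median over the 76 members was taken. That median was -0.036, -0.037, -0.037 and -0.012 in the 4 DM_AngIV hearts, -0.161, -0.075, 0.046 and 0.087 in the 4 DM hearts, and -0.033, 0.061, 0.083 and 0.121 in the 4 NC hearts. The DM hearts therefore spanned both the lowest array of the series and levels inside the NC range, and the DM_AngIV hearts lay close together at the lower edge of the NC range. Mean ± SD was -0.030 ± 0.012 in DM_AngIV, -0.026 ± 0.113 in DM and 0.058 ± 0.066 in NC (n = 4 each). Of the 76 members, 30, 27, 30 and 35 exceeded their own mean in the DM_AngIV hearts, 13, 20, 58 and 58 in the DM hearts and 30, 50, 62 and 60 in the NC hearts.

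Both subunits had their lowest array in DM mouse 1. The large subunit median was between -0.048 and -0.030 in DM_AngIV hearts, between -0.170 and 0.089 in DM hearts and between -0.029 and 0.119 in NC hearts. The small subunit median was between -0.059 and 0.017 in DM_AngIV hearts, between -0.158 and 0.081 in DM hearts and between -0.040 and 0.126 in NC hearts. The 82 nuclear subunits of the respiratory chain and ATP synthase, computed the same way, gave -0.042, -0.016, -0.043 and -0.018 in DM_AngIV hearts, -0.113, -0.036, 0.051 and 0.115 in DM hearts and -0.030, 0.057, 0.067 and 0.017 in NC hearts. DM mouse 1 was again the lowest array and DM mouse 4 the highest. The 60 cytosolic ribosomal protein genes had another order, between -0.080 and 0.065 in DM_AngIV hearts, between -0.016 and 0.075 in DM hearts and between -0.067 and 0.012 in NC hearts.

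**Figure D3:**
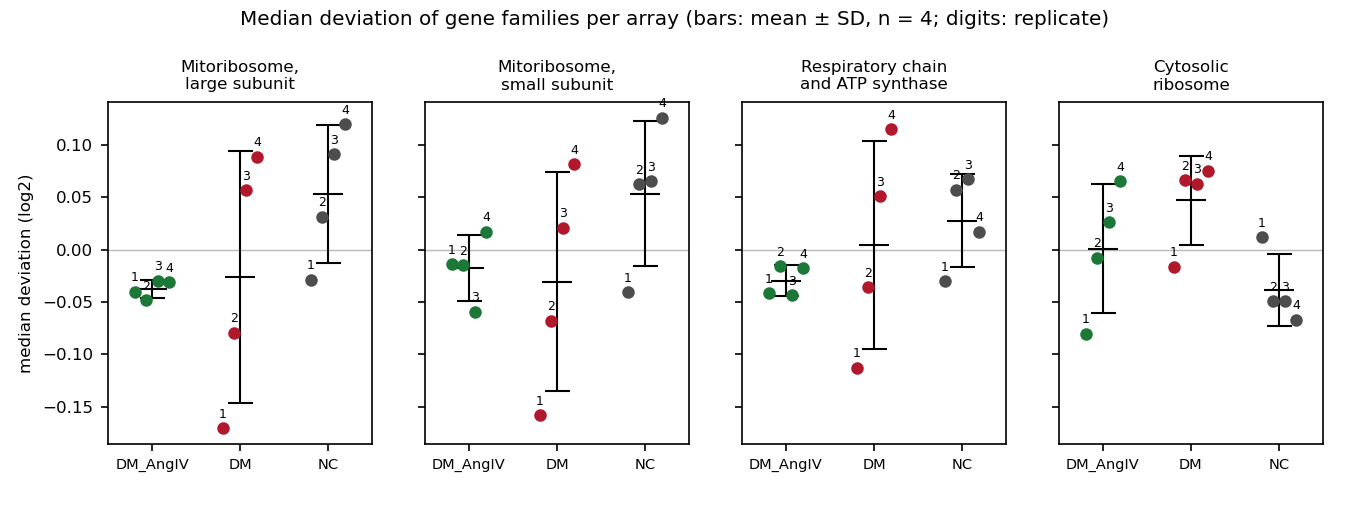
Median deviation (log2 units) of 4 gene lists on each of the 12 arrays, 1 point a mouse with its number, with the group mean ± SD and DM_AngIV left of DM and DM left of NC. For the large subunit the DM_AngIV points lie between -0.048 and -0.030, the DM points between -0.170 and 0.089 and the NC points between -0.029 and 0.119.

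Other differences between the hearts stood beside this pattern. The gap between the medians of exon and intron control probe sets, a measure of array quality, also differed. It was 3.67, 3.78, 3.87 and 3.76 in DM_AngIV hearts and 3.68, 3.83, 3.84 and 3.84 in DM hearts. In NC hearts it was 3.74, 3.79, 3.86 and 3.86. Within DM and within NC, mouse 1 had both the smallest gap and the lowest member median. In DM_AngIV, mouse 1 had the smallest gap only. The part of array quality in the members' values was not tested. Atrial muscle transcripts differed widely between hearts: Myl7, the atrial myosin light chain, read 3.94, 3.58, 3.53 and 3.84 in DM_AngIV hearts, 8.86, 9.68, 3.97 and 8.10 in DM hearts and 10.08, 4.28, 7.90 and 3.72 in NC hearts. The mean log2 value of the 6 atrial markers ran between 4.83 and 5.14 in DM_AngIV, between 4.45 and 7.81 in DM and between 4.89 and 8.32 in NC, and Bmp10 was not above background on any array. All 12 cardiomyocyte markers were above background on all arrays. Markers of other cells also differed between groups. The 5 macrophage markers were all positive in both diabetic groups against NC, with a median of 0.32 in DM_AngIV and 0.33 in DM and no gene called. Of the 5 fibroblast markers, 4 were negative in DM_AngIV against NC with a median of -0.42, and Col3a1, a fibrillar collagen, averaged 6.02 ± 0.41 in DM_AngIV and 7.19 ± 0.33 in NC and passed the test (adjusted p = 0.0128). The smooth muscle and pericyte markers had 5 of 6 negative in DM against NC with a median of -0.62. In DM_AngIV against NC, 3 of the 6 were negative, with a median of -0.16. The median deviation of these markers was 1.70, -0.45, -0.034 and 0.14 in NC hearts, and between -0.57 and -0.036 in DM hearts. NC mouse 1 read far above every other heart. The adipocyte markers had 5 of 6 negative in each diabetic group against NC, with medians of -0.26 in DM_AngIV and -0.25 in DM. Their median deviation was 0.20, -0.18, -0.14 and 0.57 in NC hearts. It lay between -0.27 and 0.13 in DM_AngIV and between -0.18 and 0.042 in DM. No gene of either list was called. Endothelial markers had medians of 0.020 in DM_AngIV and 0.010 in DM against NC. The part of these other cells in the members' values was not tested. With the atrial marker mean as a covariate, the median log2 difference of the members was -0.047 for DM against NC, -0.074 for DM_AngIV against DM and -0.163 for DM_AngIV against NC. In whole tissue, fewer cells of a type and less RNA per cell cannot be told apart.

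Within groups, members also moved with one another. After each group mean was removed, the mean correlation between pairs of members over the 12 arrays was 0.261, and 78.5% of pairs were positive. It was 0.266 among large subunit genes, 0.246 among small subunit genes and 0.260 between the subunits. Genes above background averaged 0.020 and all genes 0.0013. Members averaged 0.265 with the respiratory chain and ATP synthase subunits, which averaged 0.309 among themselves, and 0.042 with the cytosolic ribosomal proteins, which averaged 0.180 among themselves. The value for the members was lowest at 0.186 without DM mouse 1 and highest at 0.288 without NC mouse 2. That of the cytosolic ribosomal proteins was 0.115 without DM_AngIV mouse 1. All these genes share the same 12 arrays, and the correlations are given as a description.

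The members did not all follow the common course. Against the median of the other members, 69 of the 76 had a positive within-group correlation and 45 exceeded 0.5, with a median of 0.581. The 4 closest followers were Mrpl55 (0.894), Mrpl51 (0.871), Mrps7 (0.846) and Mrpl42 (0.825), which encode proteins of both subunits. Mrpl38 (-0.646), Mrpl9 (-0.483), Mrps26 (-0.168) and Mrpl24 (-0.134) had the lowest values. These 8 genes were picked after their values were seen. Mrpl55, for example, read 8.05, 7.88, 8.07 and 7.92 in DM_AngIV hearts, 7.76, 8.00, 8.46 and 8.42 in DM hearts and 8.25, 8.36, 8.33 and 8.34 in NC hearts. Mrpl38 read 7.13, 7.36, 7.22 and 7.17 in DM_AngIV hearts, 7.24, 7.19, 7.08 and 7.08 in DM hearts and 7.25, 7.29, 7.12 and 7.24 in NC hearts. In the DM group, Mrpl55 was thus higher in mice 3 and 4, and Mrpl38 was lower in the same mice.

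The first comparison set DM hearts against NC hearts and addresses the effect of streptozotocin diabetes. No member passed limma's test at an adjusted p of 0.05, and the smallest adjusted p among them was 0.201. Over all 19505 genes, 3 passed, or 0.0154%, all of them lower in DM. The members leaned to lower values by small amounts: 59 of 76 had a negative log2 difference (77.6%, against 50.2% of all genes), with a median of -0.057 against -0.001 for all genes. Differences ran from -0.49 to 0.12, and 71 of the 76 were within 0.25. The large subunit had 36 negative of 48 with a median of -0.065, and the small subunit 23 negative of 28 with a median of -0.053. Leaving out DM mouse 1 brought the median of the 76 members to -0.015, and leaving out DM mouse 4 brought it to -0.102. It was -0.091 without NC mouse 1 and -0.088 without DM mouse 3. Without the 5 arrays that carried atrial signal, which leaves 1 DM, 2 NC and 4 DM_AngIV arrays, it was -0.0051.

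At an unadjusted p under 0.05, 6 members were lower and 0 were higher in DM than in NC, while 4.26% of all genes were lower and 4.69% higher. The 6 were Mrpl3, Mrpl49, Mrpl58, Mrps10, Mrps14 and Mrps28. Groups did not overlap for 3 members, Mrps2, Mrps10 and Mrps28, all lower in DM, while 2.09% of all genes were lower and 2.45% higher without overlap.

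Mrps10 had the most negative difference. It read 5.68, 5.71, 5.73 and 5.84 in DM hearts, against 6.02, 6.13, 6.36 and 6.40 in NC hearts. Every DM heart lay below every NC heart. The means were 5.74 ± 0.07 in DM and 6.23 ± 0.18 in NC (SD, n = 4 each), a log2 difference of -0.49 ± 0.12 (SE) with an adjusted p of 0.201 and a 95% interval from -0.73 to -0.24. Its difference stayed between -0.55 and -0.43 when any 1 mouse was left out. When limma's fit was restricted to genes above background on all arrays of a group, the adjusted p of Mrps10 was 0.0620. In that fit 25 genes passed, or 0.309%.

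Mrps14, another small subunit protein, read 7.97, 8.40, 8.44 and 8.52 in DM hearts, against 8.49, 8.76, 8.68 and 8.63 in NC hearts, a difference of -0.31 ± 0.12 (adjusted p = 0.462). DM mouse 1 was well below the rest, and without it the difference was -0.19. Mrpl3 read 7.39, 7.40, 7.38 and 7.71 in DM hearts, against 7.49, 7.78, 7.80 and 7.98 in NC hearts, with a difference of -0.29 ± 0.13 (adjusted p = 0.521). The groups overlapped through DM mouse 4. Mrps28 read 7.02, 7.13, 7.29 and 7.33 in DM hearts, against 7.44, 7.53, 7.53 and 7.39 in NC hearts, with a difference of -0.28 and an adjusted p of 0.422, and the groups did not overlap. Mrpl33 differed by -0.28 ± 0.16 (adjusted p = 0.634), and without DM mouse 1 by -0.089. Mrpl58, which rescues stalled mitochondrial ribosomes as a peptidyl-tRNA hydrolase, differed by -0.23 (adjusted p = 0.524).

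At the other end, the most positive members were Mrpl10 at 0.12 (adjusted p = 0.767), Mrps9 at 0.12 (adjusted p = 0.780), Mrpl1 at 0.085 (adjusted p = 0.900) and Mrpl9 at 0.081 (adjusted p = 0.899). None of the 4 separated DM from NC hearts, and each depended on single mice. Mrpl1 was -0.030 without NC mouse 2 and Mrpl9 -0.0061 without DM mouse 1, while Mrpl10 was 0.059 without DM mouse 3 and Mrps9 0.060 without NC mouse 1.

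A set of 12 members was taken for known roles. Mrpl12 read 7.86, 8.06, 8.43 and 8.18 in DM hearts, against 8.28, 8.44, 8.37 and 8.34 in NC hearts, a difference of -0.23 ± 0.12 (adjusted p = 0.609) that was -0.14 without DM mouse 1. Mrpl45, which lies near the exit of the peptide tunnel at the membrane, differed by -0.12 (adjusted p = 0.826), and by -0.051 without DM mouse 1. Mrps22 differed by -0.16 (adjusted p = 0.844), and by 0.026 without DM mouse 2, the array where it was not above background. Mrps5, a small subunit protein, differed by -0.11 (adjusted p = 0.863), and Mrpl44, whose human variants cause cardiomyopathy, by -0.078 (adjusted p = 0.886). Mrps16 (-0.052), Mrpl40 (-0.040), Mrps34 (-0.038) and Mrps12, a protein of the decoding centre (-0.028), had adjusted p-values of at least 0.950. Mrpl32, which the mitochondrial m-AAA protease matures before assembly, had means of 6.14 ± 0.21 in DM and 6.13 ± 0.09 in NC (adjusted p = 0.994). Mrps36, a symbol now assigned to a component of the 2-oxoglutarate dehydrogenase complex, differed by 0.050 (adjusted p = 0.951). Mrps30 and Mrps18a carry small subunit symbols but are known from structures to sit in the large subunit, and they differed by -0.055 (adjusted p = 0.948) and 0.073 (adjusted p = 0.933). The sign of Mrps5, Mrps12, Mrps16, Mrps34, Mrps36, Mrpl32 and Mrpl40 also turned when some single mouse was left out.

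The precision of 4 mice per group bounds what could be seen. The median SE of a member's log2 difference was 0.114. For 68 of the 76 members, the 95% interval of DM against NC lay within ± 0.5 log2 units, a 1.41-fold change either way.

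Other genes of mitochondrial protein synthesis leaned the same way in DM, and none passed the adjusted test. Of the 26 measured assembly factors, 22 had a negative difference with a median of -0.11, and so did 13 of 15 translation factors (median -0.065) and 16 of 19 aminoacyl-tRNA synthetases and related enzymes (median -0.082). The median deviations of these 3 lists overlapped between DM and NC hearts. Assembly factors lay between -0.096 and 0.012 in DM and between -0.046 and 0.181 (mouse 4) in NC. Translation factors lay between -0.159 (mouse 1) and 0.062 in DM and between -0.066 and 0.126 in NC. Synthetases lay between -0.080 and -0.0067 in DM and between -0.100 and 0.169 in NC. The lists were not followed with single mice left out. Of the 4 measured mitoribosomal proteins with other symbols, 3 were negative. Ptcd3, a small subunit protein, averaged 6.94 ± 0.08 in DM and 7.26 ± 0.18 in NC, a difference of -0.31 (adjusted p = 0.375), and Gadd45gip1, a large subunit protein, differed by -0.18 (adjusted p = 0.780). Tfb1m, which methylates the small subunit RNA, differed by -0.41 (adjusted p = 0.462) and was above background in 2 of 4 DM hearts, and Mterf4, an assembly factor, by -0.26 (adjusted p = 0.536). Guf1, an elongation factor, differed by -0.30 (adjusted p = 0.484), Taco1, an activator of cytochrome oxidase translation, by -0.25 (adjusted p = 0.591) and Cars2, a cysteinyl-tRNA synthetase, by -0.26 (adjusted p = 0.502). Mars2, the methionyl-tRNA synthetase, was above background in 0 of 4 DM hearts and 2 of 4 NC hearts, at least 1.03-fold lower in DM (adjusted p = 0.269).

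Genes of mitochondrial DNA transcription and maintenance, with their upstream regulators, did not share that lean, with 7 of 15 genes negative and a median of 0.028. Ppargc1a, a coactivator that drives mitochondrial biogenesis, averaged 9.39 ± 0.16 in DM and 8.96 ± 0.24 in NC, a difference of 0.42 ± 0.14 (adjusted p = 0.351). Pprc1, a related coactivator, was not above background. Of 10 proteases and chaperones, 6 were negative, with a median of -0.030, Clpp at -0.17 (adjusted p = 0.647) and Hspe1 at -0.15 (adjusted p = 0.767). The respiratory chain and ATP synthase subunits had 50 of 82 negative and a median of -0.022, while 49 of 60 cytosolic ribosomal protein genes were positive with a median of 0.086.

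The second comparison set DM_AngIV hearts against DM hearts and addresses the effect of angiotensin IV in diabetes. Again 0 members passed, with a smallest adjusted p of 0.511. No gene of the 19505 passed either, 0% of those tested. The signs were mixed, 34 positive and 42 negative (55.3%). Over all genes 50.2% were negative, and 42.8% of genes whose mean was above background. The median was -0.015, against -0.001 for all genes and 0.027 for genes whose mean was above background. The members' median had no settled direction. It was 0.012 without DM mouse 3, 0.017 without DM mouse 4, -0.053 without DM mouse 1 and -0.033 without DM mouse 2. Without the arrays that carried atrial signal it was -0.092. Of the 76 members, 72 differed by less than 0.25, and for 70 the 95% interval lay within ± 0.5 log2 units. The large subunit had 20 positive and 28 negative members, and the small subunit 14 of each.

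At an unadjusted p under 0.05, Mrps10 and Mrpl24 were higher and Mrpl33 and Mrpl34 lower in DM_AngIV, 2 members each way, while 3.98% of all genes were higher and 3.50% lower. Groups did not overlap for 3 members that were higher, Mrpl4, Mrpl24 and Mrps10, and for 1 that was lower, Mrpl34. Over all genes, 2.81% were higher and 2.20% lower without overlap.

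Mrpl34 had the most negative difference. It read 6.08, 6.20, 6.27 and 6.38 in DM_AngIV hearts, against 6.44, 6.52, 6.96 and 6.95 in DM hearts. Every DM_AngIV heart was below every DM heart, though DM mice 1 and 2 came close. The means were 6.23 ± 0.12 in DM_AngIV and 6.72 ± 0.28 in DM (SD, n = 4 each), a difference of -0.49 ± 0.14 with an adjusted p of 0.511 and a 95% interval from -0.78 to -0.20. Mrpl33 differed by -0.36 ± 0.16 (adjusted p = 0.643). It read 8.77, 8.83, 8.92 and 8.98 in DM_AngIV hearts, against 8.66, 9.27, 9.50 and 9.53 in DM hearts. DM mouse 1 read below all 4 DM_AngIV hearts and the other 3 DM hearts read above them, and without DM mouse 1 the difference was -0.56. Mrpl57 (-0.19, adjusted p = 0.746) and Mrpl45 (-0.18, adjusted p = 0.768) came next.

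Mrps10 was on the positive side, with 6.26, 5.88, 6.04 and 5.93 in DM_AngIV hearts, against 5.68, 5.71, 5.73 and 5.84 in DM hearts. The DM_AngIV hearts all lay above the DM hearts, and the difference was 0.29 ± 0.12 (adjusted p = 0.629) with a 95% interval from 0.04 to 0.54. The DM mice are the same in this comparison and in the one with NC, so the 2 differences of Mrps10 are not independent of each other. Mrpl24, a large subunit protein, read 7.96, 7.99, 7.84 and 7.89 in DM_AngIV hearts, against 7.74, 7.67, 7.71 and 7.68 in DM hearts, a difference of 0.22 ± 0.09 (adjusted p = 0.643). Its groups were narrow and apart. Mrpl9 (0.24, adjusted p = 0.679) and Mrps18c (0.22, adjusted p = 0.720) had overlapping groups.

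Among the members taken for their roles, Mrpl3 differed by 0.17 (adjusted p = 0.784), Mrpl12 by -0.16 (adjusted p = 0.784) and Mrps16 by -0.15 (adjusted p = 0.801). Mrps36 (-0.12), Mrpl40 (-0.11), Mrpl32 (0.095) and Mrps34 (-0.062) had adjusted p-values between 0.823 and 0.919. Mrpl44 averaged 6.90 ± 0.07 in DM_AngIV and 6.92 ± 0.12 in DM, Mrps12 averaged 7.39 ± 0.19 in DM_AngIV and 7.40 ± 0.11 in DM, and Mrps5 averaged 6.31 ± 0.08 in DM_AngIV and 6.31 ± 0.14 in DM. Mrps22 differed by 0.026 (adjusted p = 0.985). The signs of Mrpl44, Mrps5, Mrps12 and Mrps22 turned when some single mouse was left out, and Mrpl12 was -0.057 without DM mouse 3 and Mrps16 -0.054 without DM mouse 4.

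The companion lists had no call here either. Translation factors had 4 of 15 negative and a median of 0.12, assembly factors 9 of 26 and 0.067, and synthetases 9 of 19 and 0.033. Mitochondrial DNA transcription, maintenance and regulators had 6 of 15 and 0.055, and proteases and chaperones 4 of 10 and 0.014. The mitoribosomal proteins with other symbols had 1 of 4 negative, with Ptcd3 at 0.11 (adjusted p = 0.830) and Dap3, a GTP-binding small subunit protein, at 0.10 (adjusted p = 0.854). Mtif3, an initiation factor, differed by 0.29 (adjusted p = 0.652), Oxa1l, which inserts new proteins into the inner membrane, by 0.23 (adjusted p = 0.679), and Gtpbp6, an assembly factor, by 0.27 (adjusted p = 0.652). Hars2, the histidyl-tRNA synthetase, was above background in 3 of 4 DM_AngIV hearts and 0 of 4 DM hearts, at least 1.14-fold higher in DM_AngIV (adjusted p = 0.620), and Tars2, the threonyl-tRNA synthetase, differed by 0.19 (adjusted p = 0.679). Rpusd4, Pprc1 and Polg2 were not above background. Spg7, a subunit of the m-AAA protease, averaged 6.49 ± 0.09 in DM_AngIV and 6.13 ± 0.22 in DM, a difference of 0.37 (adjusted p = 0.629), and Lonp1, a matrix protease, differed by 0.18 (adjusted p = 0.735).

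The third comparison set DM_AngIV hearts against NC hearts, and it held the largest differences of the members. It shares its arrays with the other comparisons, and diabetes and angiotensin IV differ together in it. Under limma's test over all genes 0 members passed, with a smallest adjusted p of 0.0621, while 198 of all genes passed, or 1.02%, of which 142 were higher (0.728%) and 56 lower (0.287%). Of the 76 members, 53 had a negative difference (69.7%, against 51.5% of all genes), with a median of -0.098 against -0.007 for all genes and 0.022 for genes whose mean was above background. The median stayed between -0.125 and -0.074 when any 1 mouse was left out. Differences ran from -0.65 to 0.32, and 63 members were within 0.25. The large subunit had 33 negative of 48 and a median of -0.124, and the small subunit 20 of 28 and a median of -0.054, but the difference between subunits was not tested.

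At an unadjusted p under 0.05, 11 members were lower and 1, Mrpl9, was higher in DM_AngIV, while 6.53% of all genes were lower and 8.11% higher. The 11 were Mrpl12, Mrpl33, Mrpl34, Mrpl37, Mrpl43, Mrpl45, Mrpl49, Mrpl55, Mrpl57, Mrps14 and Mrps28, of which Mrpl43 was below background. Groups did not overlap for 14 members that were lower and for Mrpl9, which was higher, while 4.20% of all genes were lower and 5.63% higher without overlap. For 61 of the 76 members the 95% interval lay within ± 0.5 log2 units.

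Mrpl33 had the lowest adjusted p. It read 8.77, 8.83, 8.92 and 8.98 in DM_AngIV hearts, against 9.52, 9.58, 9.53 and 9.45 in NC hearts. The groups were wide apart, with little spread inside either. The means were 8.87 ± 0.09 in DM_AngIV and 9.52 ± 0.06 in NC (SD, n = 4 each), a log2 difference of -0.65 ± 0.16 (0.638-fold) with an adjusted p of 0.0621 and a 95% interval from -0.98 to -0.32. It stayed between -0.68 and -0.61 when any 1 mouse was left out.

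Mrpl34 read 6.08, 6.20, 6.27 and 6.38 in DM_AngIV hearts, against 6.83, 6.98, 6.67 and 6.66 in NC hearts, and the groups did not overlap. The means were 6.23 ± 0.12 in DM_AngIV and 6.78 ± 0.15 in NC, a difference of -0.55 ± 0.14 (0.681-fold) with an adjusted p of 0.0639. Mrpl12 read 7.96, 7.95, 7.91 and 8.09 in DM_AngIV hearts, against 8.28, 8.44, 8.37 and 8.34 in NC hearts. The groups were again apart, and the difference was -0.38 ± 0.12 (adjusted p = 0.129). Mrpl37, a large subunit protein, read 7.27, 7.27, 7.27 and 7.19 in DM_AngIV hearts, against 7.77, 7.60, 7.47 and 7.54 in NC hearts, with a difference of -0.35 ± 0.12 (adjusted p = 0.195).

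Whether these genes passed depended on which genes were tested and on how the spread was estimated. When the fit was restricted to genes above background, 4 members were called lower in DM_AngIV than in NC: Mrpl33 (adjusted p = 0.0191), Mrpl34 (0.0192), Mrps28 (0.0389) and Mrpl12 (0.0409), against 7.73% of those genes in either direction. With limma's trend and robust options 3 members were called, where 514 of all genes (2.64%) were. With the 8 arrays of the 2 groups alone 2 members and 245 of all genes (1.26%) were called. At a threshold of 0.1 the counts were 2 members and 2.61% of all genes, among genes above the median 2 members and 5.17% of those genes, and with array weights 1 member and 1.11% of all genes. Without DM mouse 1, which enters this comparison only through the shared spread, 2 members were called, Mrpl33 (adjusted p = 0.00736) and Mrpl34 (adjusted p = 0.0428), while calls over all genes came to 302 (1.55%), against 198 with every mouse.

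**Figure D4:**
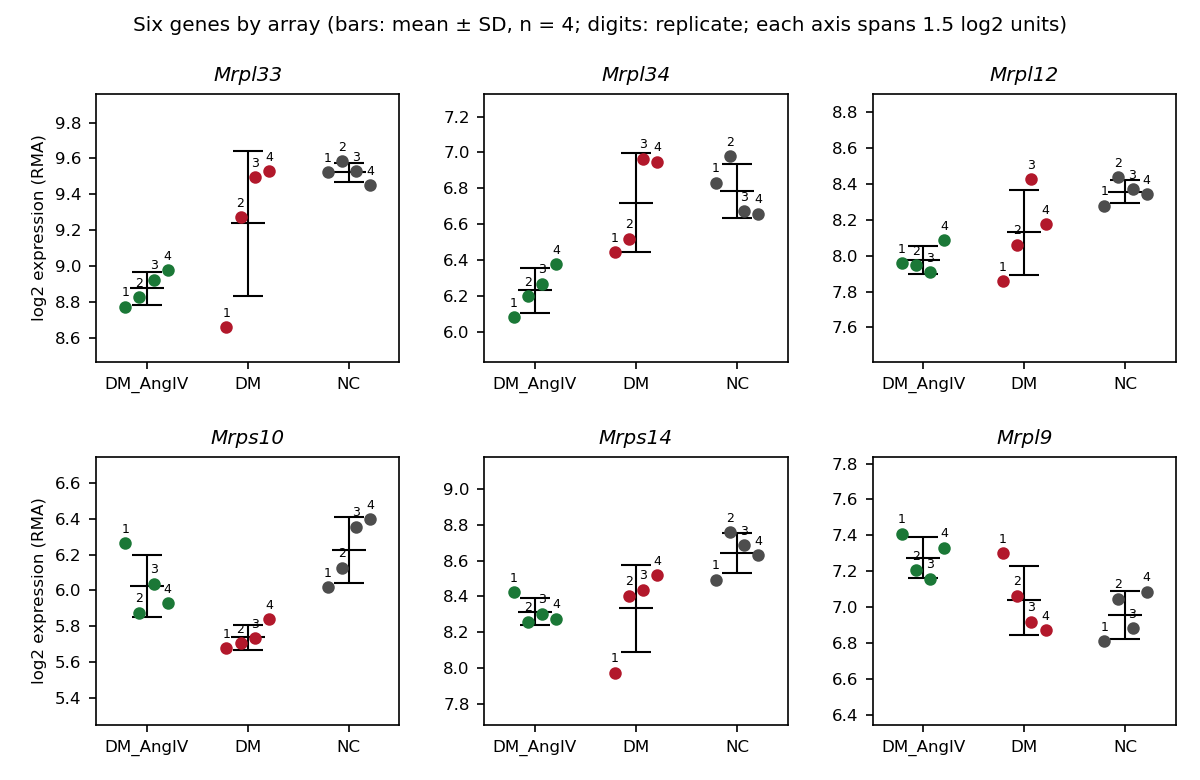
Log2 values of 6 mitochondrial ribosomal protein genes in each mouse, with DM_AngIV left of DM and DM left of NC, and the group mean ± SD. Mrpl33 and Mrpl34 in DM_AngIV hearts lie below all NC hearts, and Mrps10 in DM hearts lies below all DM_AngIV and NC hearts.

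Mrps28 and Mrps14 had the most negative differences of the small subunit. Mrps28 read 7.09, 7.24, 7.19 and 7.06 in DM_AngIV hearts, against 7.44, 7.53, 7.53 and 7.39 in NC hearts, a difference of -0.33 (adjusted p = 0.135). Mrps14 read 8.42, 8.26, 8.30 and 8.28 in DM_AngIV hearts, against 8.49, 8.76, 8.68 and 8.63 in NC hearts, a difference of -0.33 (adjusted p = 0.222). In both genes the DM_AngIV hearts lay below all NC hearts. Mrps10, the most negative member in DM, differed by -0.20 in DM_AngIV against NC (adjusted p = 0.465), and its groups overlapped.

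Mrpl9 was the most positive member. It read 7.41, 7.20, 7.16 and 7.33 in DM_AngIV hearts, against 6.81, 7.05, 6.88 and 7.09 in NC hearts. All 4 DM_AngIV hearts were above the NC hearts, by a mean of 0.32 ± 0.12 (adjusted p = 0.217). Mrpl24 (0.18, adjusted p = 0.372), Mrps35 (0.16, adjusted p = 0.587) and Mrpl50 (0.16, adjusted p = 0.579) followed. Mrpl9 and Mrpl24 were also among the members with the lowest within-group correlation to the rest.

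Of the members taken for their roles, Mrpl45 differed by -0.31 (adjusted p = 0.262), Mrps16 by -0.20 (adjusted p = 0.472) and Mrpl40 by -0.15 (adjusted p = 0.533). Mrps22 (-0.13), Mrpl3 (-0.12), Mrps5 (-0.11), Mrps34 (-0.10), Mrpl44 (-0.095), Mrps36 (-0.074) and Mrps12 (-0.034) had adjusted p-values between 0.714 and 0.934. Mrpl32 was slightly positive at 0.10 (adjusted p = 0.750), and the sign of Mrps12 turned when some single mouse was left out. Mrps30 differed by -0.075 (adjusted p = 0.838), and Mrps18a averaged 6.96 ± 0.06 in DM_AngIV and 6.96 ± 0.24 in NC.

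**Figure D5:**
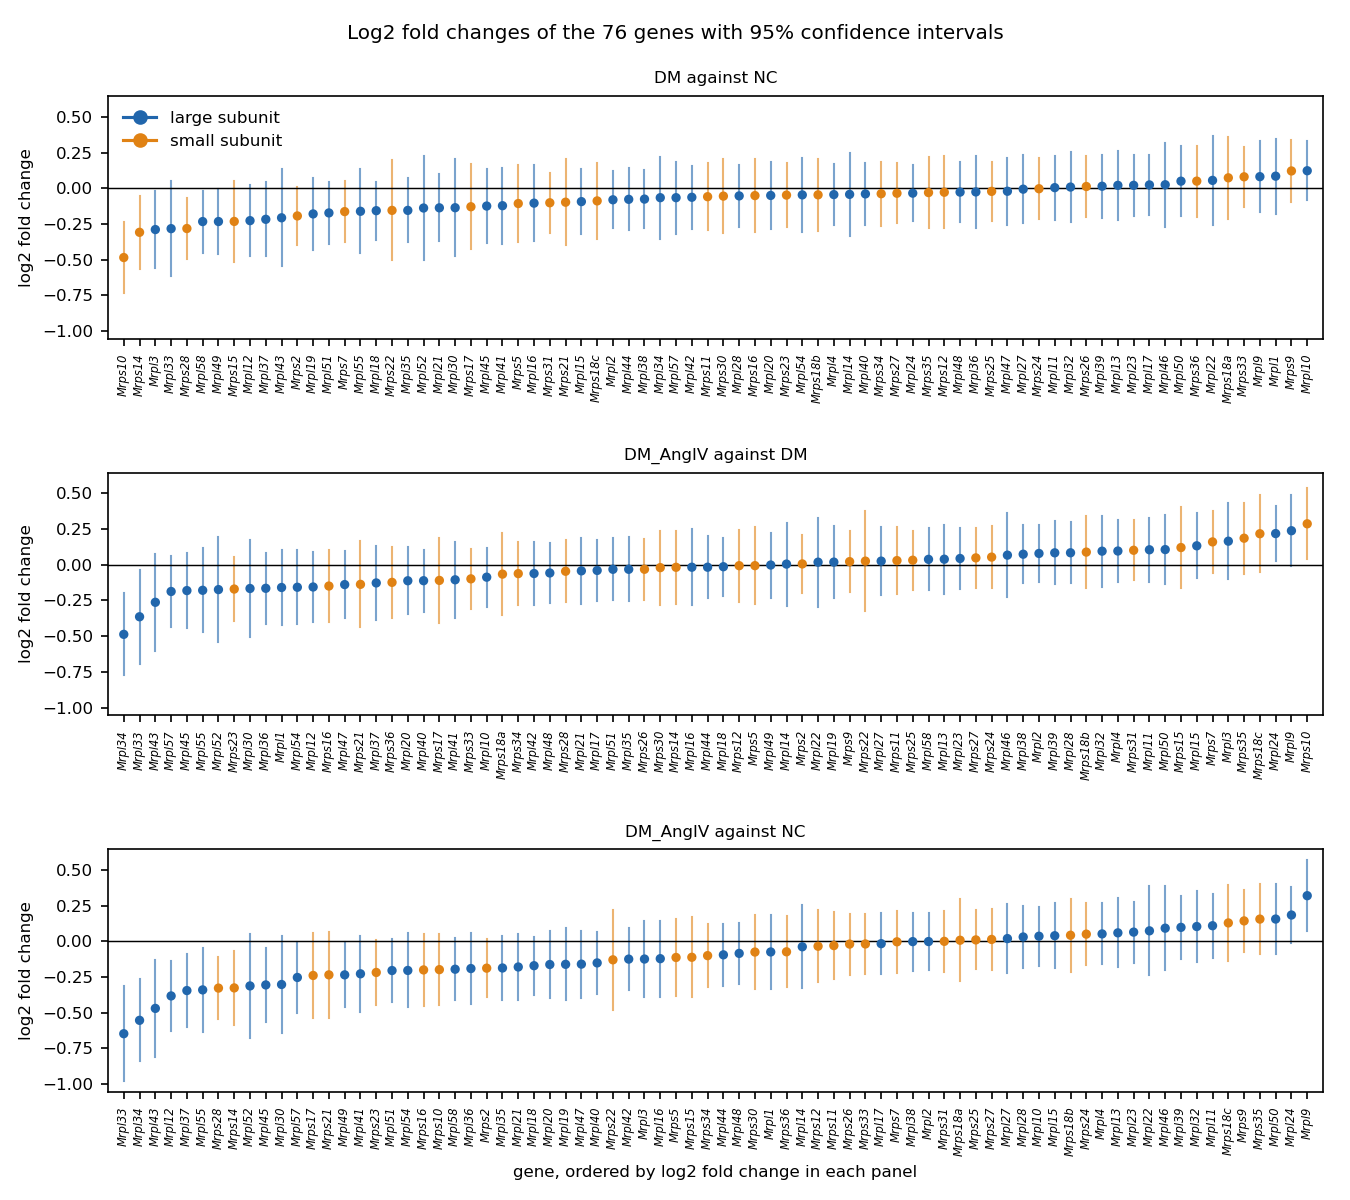
Log2 differences of the mitochondrial ribosomal protein genes in the 3 comparisons, 1 point a gene ordered by its value, with the 95% interval as a line and colour for the subunit; Mrpl43 is shown although it was not above background. Medians are -0.057 for DM against NC, -0.015 for DM_AngIV against DM and -0.098 for DM_AngIV against NC, and no gene passed the adjusted test in any of the 3.

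Members were also divided by the motifs in their promoters. For DM against NC the median difference was -0.045 in genes with the NRF1 core and -0.063 in those without, for DM_AngIV against DM -0.0095 and -0.018, and for DM_AngIV against NC -0.018 and -0.124. With and without the ETS core the medians were -0.066 and -0.057 for DM against NC, -0.040 and -0.0040 for DM_AngIV against DM, and -0.130 and -0.085 for DM_AngIV against NC. With and without the YY1 letters they were -0.047 and -0.066, then -0.0041 and -0.018, then -0.032 and -0.113, in the same order of comparisons. The nuclear receptor core and the TATA box letters were in 4 and 5 genes and are not divided here. These medians are descriptions of the 67 genes with a promoter entry and were not tested.

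The other mitochondrial lists showed no call in DM_AngIV against NC. The respiratory chain and ATP synthase subunits had 55 of 82 negative and a median of -0.057, assembly factors 17 of 26 and -0.069, synthetases 13 of 19 and -0.064, and translation factors 8 of 15 and -0.033. The mitoribosomal proteins with other symbols had 3 of 4 negative with a median of -0.12, led by Gadd45gip1 at -0.31 (adjusted p = 0.365) and Ptcd3 at -0.20 (adjusted p = 0.402). Mterf4 differed by -0.38 (adjusted p = 0.144), Tfb1m by -0.27 (adjusted p = 0.482), Taco1 by -0.40 (adjusted p = 0.143), Mtif2, an initiation factor, by -0.29 (adjusted p = 0.361) and Qrsl1, a subunit of the glutamyl-tRNA amidotransferase, by -0.26 (adjusted p = 0.394). Mars2 was above background in 0 of 4 DM_AngIV hearts and 2 of 4 NC hearts, at least 1.03-fold lower in DM_AngIV (adjusted p = 0.321). Mitochondrial DNA transcription, maintenance and regulators had 6 of 15 negative and a median of 0.11. Ppargc1a averaged 9.47 ± 0.19 in DM_AngIV and 8.96 ± 0.24 in NC, a difference of 0.50 ± 0.14 (adjusted p = 0.0922). Among proteases and chaperones 6 of 10 were negative, with a median of -0.025, Spg7 at 0.54 ± 0.15 (adjusted p = 0.10) and Hspe1 at -0.16 (adjusted p = 0.591). The cytosolic ribosomal protein genes had 35 of 60 positive and a median of 0.025.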

How the data were processed

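RNA from the myocardium of 12 mice, 4 in each of the DM_AngIV, DM and NC groups, was hybridised to Affymetrix mouse arrays after 6 µg of total RNA had been labelled with biotin, per the labels' protocols. The authors deposited log2 expression values per probe set, made with RMA (background correction, quantile normalization and probe summarization), per the submitters' processing notes. Its version is not given in the sources used here, nor is the genome build. Of 29129 probe sets in the table, 19572 carried 1 gene symbol, and the probe set with the highest mean was kept for each of 19505 genes. A level is compared within a probe set only, and precision is limited by the number of arrays.

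The deposited log2 values of all genes were fitted in 1 model with a mean per group (limma 3.58.1 lmFit and eBayes, R 4.3.3), two-sided, with Benjamini-Hochberg adjustment over all genes in each of the 3 comparisons and a threshold of 0.05. The fit was tested on simulated data with independent noise and planted shifts larger than any difference of a member. That test does not cover differences of the size seen here. Background was the 95th percentile of 246 reporter control probe sets, 4.96. Where a gene was above background in no array of a group, only a bound is given. Members were named if they passed the test, if they had one of the 4 most positive or 4 most negative differences of a comparison among the 75 members above background in a group, or if they were among 12 taken for known roles, and companion lists by the 2 genes with the smallest unadjusted p. Other names are given where a small count or range calls for them. Members and lists were chosen with earlier results of these data known. Promoter motifs were counted with Python 3.11.15 in RefSeq windows, and the NRF1 core was shortened from a longer consensus after the counts of that consensus had been seen. Figures used matplotlib 3.10.9. Alternatives changed the threshold, the gene filter, the probe set rule, scaling, array weights, the variance prior, the arrays fitted, a replicate block, an atrial covariate and each mouse in turn.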

Additional observations from a re-analysis of the deposited data

Results flagged for a closer look

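In 159 groups of 4 mice, the gap between the most extreme mouse and its nearest neighbour was compared with the whole range of the group, and 11 exceeded Dixon's critical value of 0.829. About 1 in 20 groups, or 7.95 of 159, does so by chance. Among the members, Mrpl37 read 7.19 in DM_AngIV mouse 4, with the other 3 mice at 7.27, and Mrpl3 read 7.71 in DM mouse 4, with the others between 7.38 and 7.40. Mrps36 read 8.29 in NC mouse 2, with the others between 8.18 and 8.20. The median deviation of the 76 members was -0.012 in DM_AngIV mouse 4, with the others between -0.037 and -0.036.

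Among the companion genes in DM_AngIV, Ppargc1a read 9.75 in mouse 4 (others between 9.34 and 9.40), Pprc1 read 3.49 in mouse 4 (others between 3.15 and 3.20), Spg7 read 6.62 in mouse 2 (others between 6.44 and 6.45) and Cars2 read 6.46 in mouse 2 (others between 6.63 and 6.67). In DM, Guf1 read 6.24 in mouse 3 (others between 5.75 and 5.82) and Pprc1 read 3.36 in mouse 1 (others between 3.93 and 3.96). In NC, Tars2 read 5.61 in mouse 1 (others between 5.75 and 5.78).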

How the results depend on the processing

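The count of members called in DM_AngIV against NC was 0 as reported and changed with the setting: 2 at a threshold of 0.1 (509 over all genes), 4 among genes above background (625), 2 among genes above the median of all genes (504), 2 with the 8 arrays of both groups alone (245), 1 with array weights (216), 3 with trend and robust options (514), and between 0 and 2 when 1 mouse was left out (81 to 302). The median for DM_AngIV against DM was -0.092 without the arrays that carried atrial signal. The cause of these changes was not tested. The gene filters reduce the number of genes tested, and the 0.1 threshold is looser by construction. For DM against NC and DM_AngIV against DM, 0 members were called under every alternative run, and unadjusted counts stand in the text. No member was called as reported, so a turn of direction could be seen only in values called under an alternative. Among the 26 members followed through the alternatives, no such value had turned its direction. Mrps28, called among genes above background, was not followed. Over all genes, calls for DM against NC ran between 0 without the atrial arrays and 30 when 1 mouse was left out, against 3 as reported, those for DM_AngIV against DM between 0 and 5, against 0, and those for DM_AngIV against NC between 50 without the atrial arrays and 625 among genes above background, against 198.

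Replicate numbers are shared between groups. Deviations of same-numbered mice correlated between -0.098 and 0.171, and 1 of 12 correlations was above 0.1. The mice were therefore not treated as pairs. What the number stands for is not given in the sources used here, and a shared batch cannot be told from these correlations. With the replicate number as a block, 0 members were called in each comparison, the members' medians were -0.098 and -0.015 for DM_AngIV against NC and against DM, and -0.057 between DM and NC, and the count over all genes for DM_AngIV against NC was 115. With 4 arrays a group, the median distance from a member's estimate to its unadjusted 95% limit was about 0.24 log2 units. Differences under that could not be told from 0 for a typical member. The adjusted test over all genes asked for more. Mrpl33 at -0.65 in DM_AngIV against NC had an adjusted p of 0.0621 in limma's test.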
